A study of Mus musculus with 18 samples.

Results

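Immunoglobulin transcripts were followed in 18 mouse mammary tumors through 10 named genes, of 57126 in the table: the heavy chain constant genes Ighm, Ighg1, Ighg2b, Ighg2c, Ighg3 and Igha, the light chain constant genes Igkc, Iglc1 and Iglc2, and Jchain. The genes were chosen by name. All 10 passed the filter on low counts in each of the 3 comparisons between genotypes. Bulk RNA came from 7 MaP R172H/- tumors, 5 MaP R245W/- tumors and 6 MaP -/- tumors. The mice were females of an F1 hybrid of BALB/c and C57BL6/J, and Ad-Cre (adenovirus that carries Cre recombinase) was injected into their mammary ducts at 10 to 12 weeks of age. Recombination in ductal epithelial cells left the R172H or the R245W missense allele of Trp53 over a deleted allele, or no allele in MaP -/- tumors, while stromal and immune cells kept wild-type Trp53. Some mice of both missense genotypes also carried Rosa26LSL-TdTomato/+. The 6 MaP -/- tumors came from 4 mice, since mice JM663 and JM833 each gave 2 tumors. For mice JM779 and JM836 the labels and the published list of tumors differ on which tumor was sequenced, and the names used here follow the labels. A HiSeq instrument read the MaP R172H/- libraries at 76 nt from each end and a NovaSeq instrument the others at 100 nt, so genotype and platform cannot be told apart in any comparison that involves MaP R172H/-. The paper classed MaP R172H/- tumors as luminal B or HER2-enriched and the others as triple-negative, by qPCR of receptor genes. Tumor subtype therefore cannot be told apart from genotype in these comparisons either.

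An antibody is built from paired heavy and light chains. A B cell first makes IgM and IgD from Ighm and Ighd, and can then switch to an IgG, IgA or IgE constant gene by deleting the DNA between them, which changes what the antibody does and leaves its antigen specificity as it was. Plasma cells, the end stage of B cells, secrete antibody, fill much of their RNA with immunoglobulin transcripts and lose B cell surface genes such as Ms4a1. The J chain links IgM and IgA into polymers that epithelium can carry into secretions, and the mammary gland is a tissue known for secreted IgA. The Jchain gene is transcribed in antibody-secreting cells. In bulk RNA, fewer of these cells and less immunoglobulin RNA per cell cannot be told apart.

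The heavy chain genes lie in one cluster on the minus strand of chromosome 12 (GRCm39, GENCODE M39), from Ighm (chr12:113382178-113386350) through Ighg3 (chr12:113319844-113324852), Ighg1 (chr12:113288860-113294143), Ighg2b (chr12:113266585-113271553) and Ighg2c (chr12:113248945-113252552) to Igha (chr12:113218450-113223856). Igkc lies on chromosome 6 (chr6:70703419-70703950), Iglc2 (chr16:19017146-19019101) and Iglc1 (chr16:18880368-18880821) on chromosome 16, and Jchain on chromosome 5 (chr5:88667668-88675750). The IgG subclasses differ most in the hinge between the antigen-binding arms and the stem. The 4 hinge exons of the IgG genes are shown because they separate the subclasses that the tumors used in unequal parts. Each is read 5′ to 3′ on the coding strand, and capitals mark cysteine codons, whose residues can form the bonds that hold the heavy chains together:
Ighg1 (chr12:113293464-113293502, minus strand): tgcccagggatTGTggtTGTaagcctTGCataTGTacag
Ighg2b (chr12:113270881-113270946, minus strand): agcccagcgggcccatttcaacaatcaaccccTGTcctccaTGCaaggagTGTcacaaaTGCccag
Ighg2c (chr12:113251883-113251945, minus strand): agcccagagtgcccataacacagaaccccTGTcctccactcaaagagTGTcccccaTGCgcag
Ighg3 (chr12:113324149-113324196, minus strand): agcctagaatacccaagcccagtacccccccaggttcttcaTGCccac
The Ighg1 exon had 39 bases and 4 whole in-frame cysteine codons, the Ighg2b exon 66 and 4, the Ighg2c exon 63 and 3, and the Ighg3 exon 48 and 1.

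The genes that work with Jchain differ from the IgG genes at the end of the secreted form. The bases that a secreted transcript keeps beyond the splice site used for the membrane form are shown for both, with the cysteine codon in capitals:
Ighm (chr12:113384490-113384548, minus strand): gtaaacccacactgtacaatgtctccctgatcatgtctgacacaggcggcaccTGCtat
Igha (chr12:113222391-113222449, minus strand): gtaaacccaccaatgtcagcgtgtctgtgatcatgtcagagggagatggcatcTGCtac
Each stretch had 59 bases with 1 cysteine codon, the residue through which polymers and the J chain are joined. In the 4 IgG genes the same stretch was 5 bases long, with 0 cysteine codons.

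The lambda genes are shown because near-identical copies can limit how far reads are given to one gene. A window of 90 bases near the start of the constant coding sequence, lined up with Iglc2, is printed, with bases that differ from Iglc2 in capitals. Iglc3 is a further lambda gene outside the 10:
Iglc2 (chr16:19017511-19017600, minus strand): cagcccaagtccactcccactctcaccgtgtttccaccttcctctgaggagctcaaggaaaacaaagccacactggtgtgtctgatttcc
Iglc3 (chr16:18884340-18884429, minus strand): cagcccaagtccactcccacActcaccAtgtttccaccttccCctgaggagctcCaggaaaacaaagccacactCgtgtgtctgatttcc
Iglc1 (chr16:18880730-18880819, minus strand): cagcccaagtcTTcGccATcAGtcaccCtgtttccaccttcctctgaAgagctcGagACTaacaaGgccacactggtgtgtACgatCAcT
Iglc3 differed from Iglc2 at 5 of the 90 bases and was 96.5% identical to it over 312 aligned coding bases, and Iglc1 differed at 19 and was 73.7% identical over 316. At the 76-base read length of the MaP R172H/- libraries, 0.746% of the stretches of Iglc2 were also in Iglc3, 0.653% of those of Ighg2b were in Ighg3, and 0.32% of those of Ighg2c were in Ighg2b. At 100 bases no stretch was shared among these genes. BALB/c mice carry Ighg2a where C57BL/6 mice, the source of the reference, carry Ighg2c. How reads of the BALB/c allele were counted was not tested, and Ighg2a was not analysed here.

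Immunoglobulin transcripts were a small and very uneven part of the libraries. Counts over all immunoglobulin genes made up from 0.00212% (95% Wilson interval 0.00194% to 0.00231%, counting error only) of the library in tumor YZ7 to 0.262% (0.260% to 0.264%) in tumor JM833-T2. Among MaP R172H/- tumors the median share was 0.0744%, among MaP -/- tumors 0.0300%, and among MaP R245W/- tumors 0.00421%. Total counts ran from 23113578 to 37365062, and each MaP R245W/- library had 30030630 or more.

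The tumors held immune cells in all groups. Ptprc, which encodes the leukocyte surface protein CD45, ran from 66.2 to 161 CPM (counts scaled to the TMM library size) in MaP R172H/- tumors, from 72.3 to 379 in MaP R245W/- tumors and from 191 to 587 in MaP -/- tumors. The 18 listed B cell genes summed to 105 to 199, 61.9 to 134 and 76.4 to 1105 CPM in the same order, and defining B cell genes were near 0 in most tumors. Ms4a1, which encodes CD20, was at 95.1 CPM in JM833-T2, at 4.43 in JM833-T1, at 3.16 in YZ11 and between 0.0877 and 1.32 in the other 15. JM833-T2 also had 35.9 CPM of Cd79a, a subunit of the B cell receptor, 80.0 of Ighd, and 196 of Cr2, a complement receptor of B cells and follicular dendritic cells. Glycam1, an adhesion ligand of lymph node vessels and of the mammary gland, was at 88.4 CPM there and at 64.0 in JM833-T1. The summed level of the 10 genes listed for lymph node stroma and vessels was 552 CPM in JM833-T2, 98.3 in JM833-T1 and between 3.64 and 48.6 in the others. Cr2 and Glycam1 are among these 10 genes, and Cr2 is also among the 18 B cell genes, so this sum is not separate from the values above. The 10 adipocyte genes summed to 7546 CPM in JM833-T1, 833 in JM833-T2 and 764 in YZ4 against 22.1 to 201 in the other 15. Both JM833 tumors therefore stood apart from the other MaP -/- tumors, and the counts of calls that change without both are given beside those with them.

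Ighm, the IgM heavy chain gene, was lowest in MaP R245W/- tumors by median. In MaP R245W/- tumors it was at 42.7 CPM in JM1233, 12.5 in JM1564, 11.8 in RM0014, 6.70 in JM1126 and 3.43 in JM1133. In MaP -/- tumors the lowest value was 47.1, the median 133 and the highest 868 CPM, and in MaP R172H/- tumors they were 9.78, 99.8 and 519. Every MaP R245W/- tumor was below every MaP -/- tumor. The MaP R172H/- tumors overlapped both groups, with YZ6 at 17.8 and YZ7 at 9.78.

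Igkc, the single kappa light chain constant gene, had a median 28.6 times as high in MaP R172H/- as in MaP R245W/- tumors, the largest such ratio of medians among the 10, against 8.44 times for Ighm. Its level in MaP R245W/- tumors was 14.2 CPM in JM1233, 6.70 in JM1564, 8.91 in RM0014, 7.44 in JM1126 and 5.38 in JM1133. MaP R172H/- tumors had a lowest value of 3.86, a median of 213 and a highest of 383 CPM, and MaP -/- tumors had 12.98, 40.1 and 343. Thus 5 of 7 MaP R172H/- tumors were above every MaP R245W/- tumor, and YZ7 was below all of them.

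Jchain was low in MaP R245W/- tumors, at 6.58 CPM in JM1233, 3.49 in JM1564, 3.07 in RM0014, 3.35 in JM1126 and 2.71 in JM1133. The lowest, median and highest values were 0.877, 24.4 and 72.3 CPM in MaP R172H/- tumors and 5.62, 24.5 and 129 in MaP -/- tumors. The medians of these groups were nearly equal and their ranges overlapped.

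**Figure D1:**
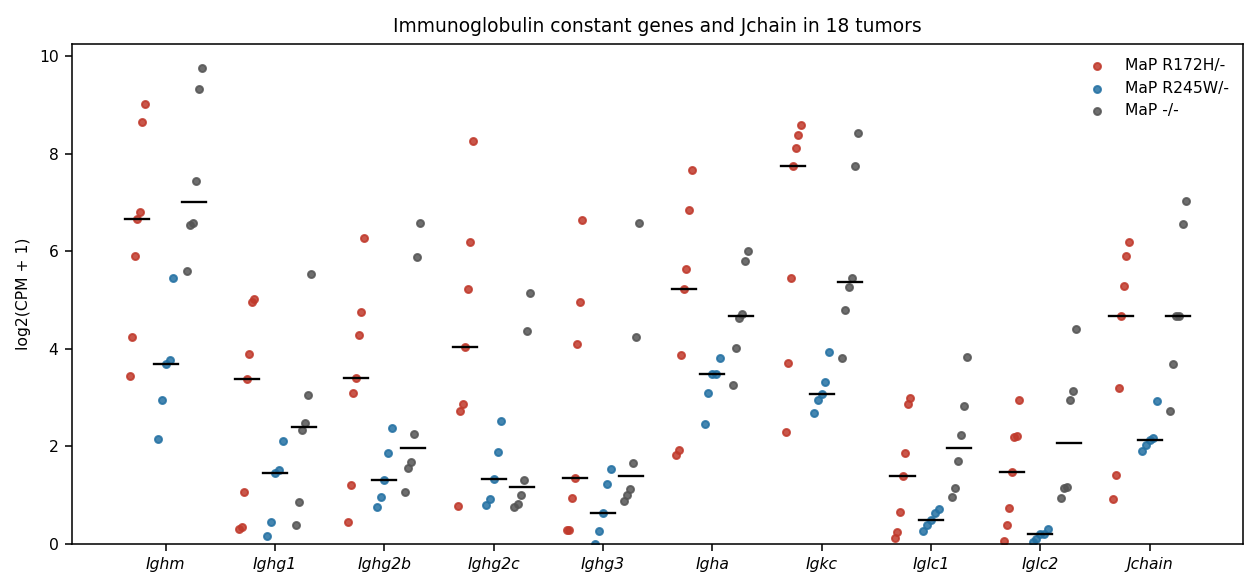
Level of each of the 10 genes in each tumor, as log2(CPM + 1), with 1 point a tumor, colored by genotype, and a black line at the group median. Blue MaP R245W/- points lie lowest by median in 9 of 10 genes, Ighg2c being the exception, and red MaP R172H/- points spread widely, for Igkc from 3.86 to 383 CPM.

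Igha, the IgA heavy chain gene, differed less between group medians than 8 of the other 9 genes, Ighg3 being the exception. It was at 12.98 CPM in JM1233, 4.48 in JM1564, 7.53 in RM0014, 10.2 in JM1126 and 10.2 in JM1133, against a lowest, median and highest of 8.49, 24.4 and 63.3 in MaP -/- tumors and of 2.50, 36.4 and 203 in MaP R172H/- tumors. The groups overlapped. The highest MaP R172H/- value was in YZ4.

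The IgG genes were each carried by a few tumors. Ighg2c, whose product in C57BL/6 mice binds activating Fc receptors, was at 305 CPM in YZ4, 72.2 in YZ3, 36.1 in YZ10 and 15.4 in YZ11. Its other MaP R172H/- values were 6.30 in YZ2, 5.55 in YZ6 and 0.702 in YZ7. MaP R245W/- tumors lay between 0.741 and 4.76, and MaP -/- tumors lay between 0.691 and 1.47 apart from 19.6 in JM833-T1 and 34.4 in JM833-T2. This was the only one of the 10 genes whose MaP -/- median, 1.23 CPM, was below the MaP R245W/- median, 1.52 CPM.

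Ighg3 was at 98.3 CPM in YZ3 and 94.6 in JM833-T2, then at 30.2 in YZ11, 17.9 in JM833-T1 and 16.0 in YZ10, and between 0 and 2.14 in the other 13 tumors. JM1133 had 0 counts of it, which allows up to 0.114 CPM (3 counts). Ighg2b was highest in JM833-T2 at 95.1 CPM and YZ11 at 75.8, and Ighg1 in JM833-T2 at 45.01, YZ10 at 31.3 and YZ4 at 30.2. In MaP R245W/- tumors Ighg2b did not pass 4.17 CPM and Ighg1 did not pass 3.32. No IgG gene separated any pair of groups without overlap.

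The lambda genes were low everywhere. Iglc2 was between 0.0286 and 0.223 CPM in MaP R245W/- tumors, which is 1 to 7 counts, between 0.0439 and 6.72 in MaP R172H/- tumors and between 0.904 and 20.1 in MaP -/- tumors. Iglc1 was between 0.191 and 0.625 CPM, between 0.0781 and 6.90, and between 0.940 and 13.3 in the same order. For both genes every MaP R245W/- tumor was below every MaP -/- tumor. Of the constant genes outside the 10, Iglc3 reached 7.57 CPM in a MaP -/- tumor and Iglc4 0.875, and Ighe, the IgE gene, reached 0.562 CPM in MaP R172H/- tumors and had 0 counts in all 5 MaP R245W/- tumors.

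Levels of different genes were compared per kb of all annotated exons. On that length Igkc led in every group, with a median of 400 CPM per kb in MaP R172H/- tumors, 75.3 in MaP -/- tumors and 14.0 in MaP R245W/- tumors. Ighm came next, at 52.9, 70.7 and 6.27. Igkc was above Ighm in 7 of 7 and 5 of 5 missense tumors but in 4 of 6 MaP -/- tumors, so these 2 neighbors did not separate there. Igha and Jchain did not separate in MaP -/- tumors either, with medians of 9.15 and 9.73 CPM per kb and Jchain higher in 3 of 6. In MaP R172H/- tumors Igha, Ighg2c and Jchain followed at 13.6, 11.6 and 9.70 CPM per kb, and Igha was above Ighg2c in 4 of 7. Iglc1 and Ighg2b were next to each other at 3.58 and 3.57 CPM per kb, with Iglc1 higher in 4 of 7. By the length of the secreted form the order changed. Ighm was then above Igkc in JM663-T1 (61.7 against 50.2 CPM per kb), JM663-T2 (115 against 70.2) and JM833-T1 (430 against 400). The same held in JM779-T1 (31.6 against 24.4) and JM1233 (28.6 against 26.7), with Igkc higher in the other tumors. Igha and Ighg2b have 1100 and 1114 bases in that form against 2668 and 2678 of exon, so their places also depend on the length.

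Isotype use was given as each class's share of the heavy chain constant counts of a tumor. IgM led in 5 of 7 MaP R172H/- tumors, in 3 of 5 MaP R245W/- tumors and in 6 of 6 MaP -/- tumors. Per kb of exon JM1126 was led by IgG in place of IgA, and per kb of the secreted form RM0014 was led by IgG in place of IgM, which then led in 13 of 18. In MaP -/- tumors the IgM share ran from 61.3% to 83.4% with a median of 76.5%. In MaP R172H/- tumors the lowest, median and highest shares were 16.8%, 66.7% and 70.1%. In MaP R245W/- tumors the share was 68.3% in JM1233, 56.9% in JM1564, 41.8% in RM0014, 24.8% in JM1126 and 22.3% in JM1133.

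YZ3 and YZ4 were the tumors led by IgG, with 59.8% (95% Wilson interval 58.8% to 60.8%) and 52.3% (51.6% to 52.999%). They did so with different subclasses. In YZ4 Ighg2c made up 88.1% (87.4% to 88.7%) of 10461 IgG counts, while in YZ3 Ighg3 made up 48.4% (47.1% to 49.7%) of 5750. Ighg3 also led in YZ3 per kb of the secreted form, but Ighg2c did per kb of all exons. Over all tumors the leading IgG gene by counts was Ighg2c in 7, Ighg2b in 7, Ighg1 in 3 and Ighg3 in 1. No MaP -/- tumor was led by Ighg2c by counts, and 4 of 7 MaP R172H/- and 3 of 5 MaP R245W/- tumors were. Per kb of exon Ighg2c, whose annotated exons are the shortest of the 4, led in 10 tumors, 1 of them MaP -/-. Per kb of the secreted form, whose lengths are from 1076 to 1114 bases in the 4 genes, it led in 7 tumors and in 0 of the MaP -/- tumors.

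The IgA share was highest in MaP R245W/- tumors, with 66.3% (61.6% to 70.8%, 404 heavy chain counts) in JM1133, 37.7% in JM1126, 26.6% in RM0014, 20.8% in JM1233 and 20.3% in JM1564. MaP R172H/- tumors ran from 8.34% to 30.7%, and MaP -/- tumors from 1.91% to 35.4%, so the groups overlapped. The high IgA share in JM1133 came with an Igha level of 10.2 CPM, below the MaP -/- median, beside the lowest Ighm of the 18. In the mouse JM833 the IgA share was 7.84% in T1 and 1.91% in T2, where Igha fell to 0.375 of its T1 level while Ighg1 was 9.96 times and Ighg3 5.29 times as high. IgD took 6.44% in JM833-T2 and at most 1.42% in the others.

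**Figure D2:**
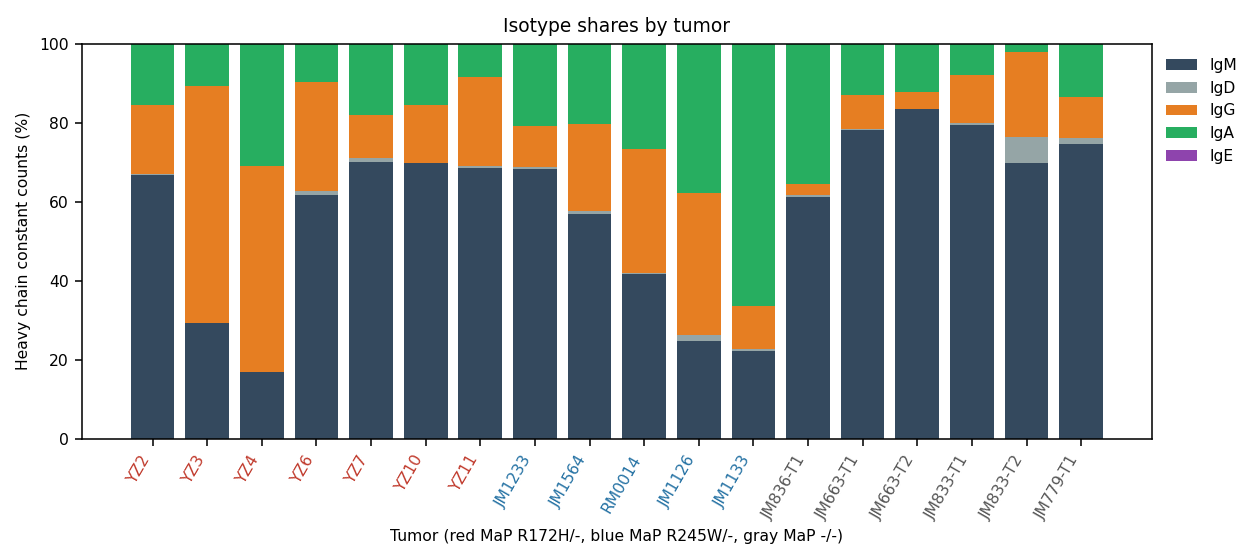
Share of heavy chain constant counts (percent) taken by each isotype in each tumor, with bars stacked to 100 and tumor names colored by genotype. IgM is the leading class in 14 of 18 tumors, IgG leads in YZ3 and YZ4, and IgA in JM1126 and JM1133, all by counts.

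The kappa chain took most of the light chain counts in every tumor. Its share ran from 92.6% to 98.2% in MaP R172H/- tumors, from 90.7% to 95.4% in MaP R245W/- tumors and from 73.8% to 94.9% in MaP -/- tumors. The lowest values were 73.8% (71.5% to 75.9%) in JM663-T2 and 79.0% (75.2% to 82.3%) in JM779-T1. The other tumor of mouse JM663 had 91.3% (89.2% to 93.1%), and between these tumors Iglc2 was 5.64 times and Iglc1 3.08 times as high in T2 as in T1, beside 1.40 times for Igkc. Of the 2 lambda variable genes with counts, Iglv1 took 51.4% to 70.1% of the lambda variable counts in MaP -/- tumors, 53.6% to 100% in MaP R172H/- tumors and 88.9% to 100% in MaP R245W/- tumors, the last with 9 to 26 counts a tumor.

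Igkc relative to Ighm differed among tumors of high level. The ratio of their CPM was 3.44 in YZ4 and 2.13 in YZ3, the IgG-led tumors, and between 0.217 and 0.453 in MaP -/- tumors. It was between 0.395 and 0.730 in the other MaP R172H/- tumors and between 0.333 and 1.57 in MaP R245W/- tumors. Igkc has 532 bases and Ighm 1886 bases of annotated exon, and how the different read lengths changed this ratio was not tested. Jchain relative to Ighm was highest in JM1133, at 0.789, and YZ4, at 0.651, both tumors with a low IgM share.

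Variable genes, which encode the antigen-binding ends, showed how varied these transcripts were. Over the 18 tumors the leading heavy chain variable gene (Ighv) took between 8.54% and 41.0% of the Ighv counts, and the leading kappa gene (Igkv) between 8.62% and 38.8% of the Igkv counts. By the leading share YZ4 had the most concentrated use in both loci. Its leading genes were Ighv1-4 with 41.0% (39.6% to 42.4%) of 4607 counts and Igkv1-135 with 38.8% (37.7% to 39.9%) of 7271. JM833-T1 came next among tumors with many counts, with Ighv7-3 at 39.9% (38.4% to 41.4%) of 3960 counts and Igkv10-94 at 22.7% (21.7% to 23.7%) of 6302. YZ10 and YZ11, with 332 and 275 CPM of Igkc against 383 in YZ4, had leading genes at 12.3% (Ighv14-2) and 11.97% (Ighv11-2) of Ighv counts and at 17.0% (Igkv4-91) and 10.1% (Igkv14-126) of Igkv counts.

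The effective number of Igkv genes, the number that would give the same Shannon entropy if used equally, was 13.9 in YZ4, 26.8 in YZ3, 28.6 in YZ10 and 31.0 in YZ11. It was 31.6 in JM833-T1 and 44.3 in JM833-T2, the highest of the 18. This number rises with depth. In 100 counts drawn from each tumor the expected number of Igkv genes was 25.9 in YZ4, the lowest, and 40.2 in JM833-T2, the highest of 17 tumors with enough counts. On that scale the MaP R245W/- tumors had a median of 36.8 Igkv genes, MaP R172H/- tumors 32.2 and MaP -/- tumors 32.7, and the ranges overlapped. At equal counts the median of MaP R245W/- tumors, which had the least immunoglobulin, was thus not below those of the other groups.

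**Figure D3:**
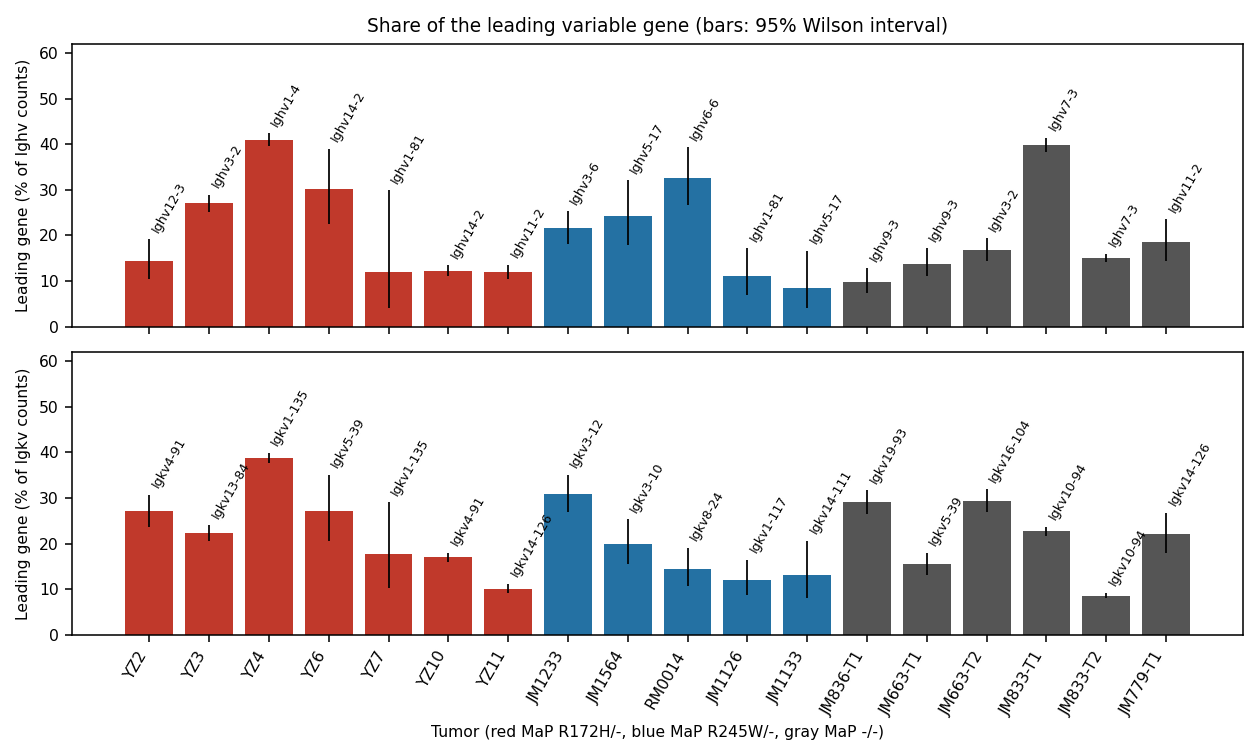
Share (percent) of the leading variable gene among heavy chain (top) and kappa (bottom) variable counts in each tumor, with the gene's name and 95% Wilson intervals for counting error. YZ4 reaches 41.0% and 38.8%, and both tumors of mouse JM833 are led by Ighv7-3 and Igkv10-94.

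Tumors of 1 mouse shared variable gene use. JM833-T1 and JM833-T2 were led by the same pair of genes, and the summed smaller share of each gene was 57.0% for Ighv and 66.5% for Igkv. For JM663-T1 and JM663-T2 it was 58.7% and 61.3%. Among pairs of tumors from different mice with at least 100 counts it ran from 14.9% to 57.7% for Ighv (median 33.96%, 118 pairs) and from 21.0% to 52.8% for Igkv (median 36.5%, 134 pairs). Both same-mouse pairs were above all others for Igkv, and 1 of 2 was for Ighv. Both are MaP -/- pairs, while the other pairs span all genotypes and both read lengths, some with lower counts. Within MaP -/- tumors, pairs from different mice ran from 32.6% to 57.7% for Ighv and from 35.4% to 52.8% for Igkv. Tumors of 1 mouse share a host and cannot be counted as independent samples of immunoglobulin use. The main fits did not model this, and a fit with them summed is among the alternatives.

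Counts were compared between genotypes with edgeR's quasi-likelihood test, with Benjamini-Hochberg adjustment over all genes tested, at a false discovery rate (FDR) below 0.05. In MaP R172H/- against MaP -/- tumors the test called 0 of the 10 genes, against 8.4% of all 20954 genes tested, and 0 had an unadjusted p below 0.05, against 24.7% of all genes. DESeq2's Wald test also called 0 of the 10, against 11.7% of the genes it adjusted, with 1 unadjusted p below 0.05. Of the 10 log2 fold changes 5 were above 0, and their median was -0.14, beside 0.0027 over all genes tested. The largest was that of Ighg2c, 2.75 ± 1.36 (SE), with an adjusted p of 0.23. Among the others, Iglc2 was at -1.38 ± 0.93, Igha at 0.96 ± 0.88, Ighm at -0.85 ± 0.90 and Igkc at 0.71 ± 0.98 on the log2 scale.

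The fold changes in this comparison depended on mouse JM833. Without both of its tumors the median log2 fold change of the 10 was 1.64 and 9 of 10 were above 0. Ighg2c alone, 1 of 10, was called, beside 1448 of all 21415 genes tested. Without JM833-T2 the median was 0.73.

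In MaP R245W/- against MaP -/- tumors all 10 log2 fold changes were below 0, from -1.81 for Igha to -5.66 for Iglc2, with a median of -3.70 beside 0.0195 over all 21452 genes tested. The fitted values were 3.51-fold lower for Igha, 13.3-fold for Igkc, 20.9-fold for Ighm and 12.6-fold for Jchain, but edgeR adjusted p was 0.26 or more for each of the 10. The share of all genes called was 0%, so the adjustment left 0 calls of any kind. At an unadjusted p below 0.05 there were 9 of 10, all lower, the exception being Ighg2c, against 11.8% of all genes and 6.46% counted as lower. DESeq2's Wald test called 8 of 10, all but Ighg1 and Ighg2c, against 1.75% of the genes it adjusted. With tumors of 1 mouse summed, edgeR called 0 of 10, with 8 at an unadjusted p below 0.05 and a median of -3.38. DESeq2 was not run on summed tumors. For 3 of the 10, Ighm, Iglc1 and Iglc2, every MaP R245W/- tumor was below every MaP -/- tumor, as in 0.848% of all genes tested.

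Without both JM833 tumors the median log2 fold change was -1.65, 9 of 10 were below 0, 6 had an unadjusted p below 0.05 and edgeR called 0. Ighg2c then turned to 1.11. Adipocyte genes moved the same way in this comparison: 0 of 10 were called by edgeR, and all 10 were lower at an unadjusted p below 0.05, with a median log2 fold change of -6.29. Without both JM833 tumors 1 of 9 was lower at that p and the median was -1.19. Their summed level ran from 35.0 to 103 CPM in MaP R245W/- tumors and from 47.0 to 7546 in MaP -/- tumors. Their part in the result was not tested.

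In MaP R172H/- against MaP R245W/- tumors 4 of 10 genes were called, all higher in MaP R172H/- tumors, against 9.4% of all 22481 genes called in either direction and 2.91% called higher. Igkc was higher by 4.40 ± 1.11 (log2 ± SE, adjusted p = 0.0186 in edgeR), Iglc2 by 4.24 ± 1.12 (adjusted p = 0.0239), Ighm by 3.49 ± 1.06 (adjusted p = 0.0464) and Ighg2c by 4.89 ± 1.49 (adjusted p = 0.047). The other 6 were all above 0, from 2.64 for Iglc1 to 4.72 for Ighg3, with edgeR adjusted p from 0.0678 to 0.16. The median of the 10 was 3.405, beside 0.0028 over all genes tested. All 10 had an unadjusted p below 0.05, against 25.9% of all genes and 11.4% counted as higher. DESeq2's Wald test called 10 of 10, against 12.2% of the genes it adjusted. Adipocyte genes were above 0 in 10 of 10 cases here, with 0 called by edgeR, 3 higher at an unadjusted p below 0.05 and a median of 3.19 on the log2 scale. They summed to between 22.1 and 764 CPM in MaP R172H/- tumors, against the 35.0 to 103 CPM above, and their part in the result was not tested.

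These calls rested on single tumors in part. Igkc was called without any 1 of the 18 tumors, and the number called ran from 1 to 6. Without JM1564 or without RM0014 Igkc alone was called. There were 2 calls, Igkc and Iglc2, without YZ3, YZ4, YZ10, YZ11, JM1133, JM1126 or JM836-T1, and 6 without YZ6 or without YZ7. The number was 6 without both JM833 tumors, the 4 with Ighg2b and Jchain, beside 2101 of all 22451 genes tested. Ighm alone of the 4 was lost without YZ2, JM663-T1 or JM663-T2, and Ighg2c alone without JM1233 or JM833-T1. With tumors of 1 mouse summed, Ighm was again the only 1 of the 4 that was lost. Of the constant genes outside the 10, Ighd and Iglc3 were tested, and Iglc3 was called higher in MaP R172H/- tumors, by 5.10 ± 1.47 (log2 ± SE, adjusted p = 0.036 in edgeR), with 0 counts in 3 of 5 MaP R245W/- tumors.

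**Figure D4:**
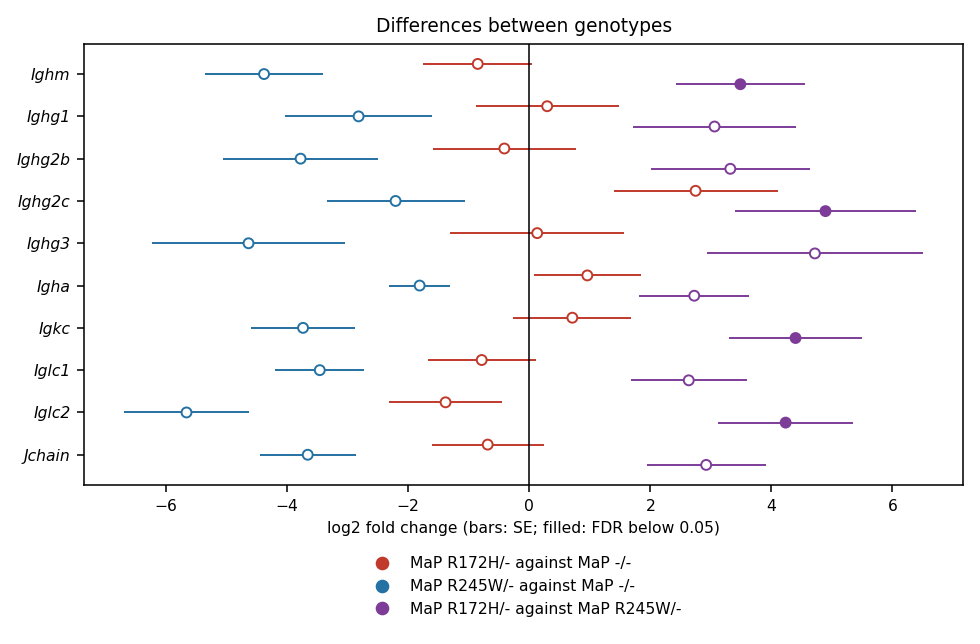
Log2 fold change of each of the 10 genes in the 3 comparisons, with bars for the SE and filled points at FDR below 0.05. All 10 blue points (MaP R245W/- against MaP -/-) lie below 0 and all 10 purple points (MaP R172H/- against MaP R245W/-) above 0 with 4 filled, while the red points (MaP R172H/- against MaP -/-) lie on both sides. The 3 comparisons share tumors.

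Genes of the B lineage did not follow immunoglobulin in every tumor. YZ4, YZ10 and YZ3 had 383, 332 and 213 CPM of Igkc with 0.264, 0.329 and 0.353 CPM of Ms4a1, whereas JM833-T2 had 343 CPM of Igkc with 95.1 of Ms4a1. Igkc was thus 1447 times Ms4a1 in YZ4 and 3.61 times in JM833-T2. Of the 18 listed B cell genes, 0 were called in any of the 3 comparisons by edgeR, and at an unadjusted p below 0.05 13 of 18 tested were lower in MaP R172H/- against MaP -/- tumors (13.1% of all genes), 11 of 17 were lower in MaP R245W/- against MaP -/- tumors (6.46% of all genes) and 2 of 18 were higher in MaP R172H/- against MaP R245W/- tumors (11.4% of all genes). Without both JM833 tumors the counts lower at that p were 0 of 18 and 2 of 16, and edgeR called 2 of 18 higher in MaP R172H/- than in MaP R245W/- tumors, Fcer2a and Tnfrsf13c, which are named after their values were seen. That fit called 2101 of all 22451 genes tested in either direction. Ms4a1 was at -4.55 and -5.37 on the log2 scale in the first pair of comparisons and Cd79a at -2.88 and -3.59, with edgeR adjusted p from 0.0515 to 0.36.

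**Figure D5:**
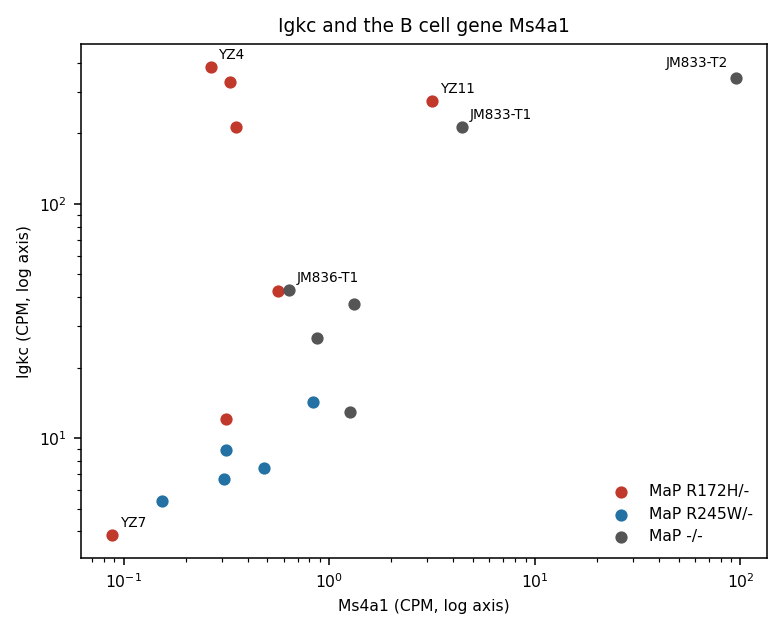
Igkc against Ms4a1 in each tumor (CPM, both axes logarithmic), colored by genotype. YZ4 holds 383 CPM of Igkc at 0.264 CPM of Ms4a1, JM833-T2 holds 343 CPM at 95.1, and the 5 MaP R245W/- tumors stay between 5.38 and 14.2 CPM of Igkc.

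The 11 listed plasma cell genes summed to 29.3 to 65.3 CPM in MaP R172H/- tumors, 16.2 to 115 in MaP R245W/- tumors and 38.1 to 140 in MaP -/- tumors. The sum of 115 was that of JM1126, where the listed gene Prdm1 alone was at 86.1 CPM. The median sum of MaP R245W/- tumors was 25.4 CPM. Tnfrsf17, which encodes the survival receptor BCMA, did not pass 1.01 CPM in any tumor, and Mzb1, a chaperone gene of antibody assembly, did not pass 0.882. Of the 10 listed plasma cell genes tested in MaP R172H/- against MaP R245W/- tumors 2 were called, both higher, against 2.91% of all genes. Pou2af1, a coactivator of immunoglobulin gene transcription, was higher by 4.76 ± 1.18 (log2 ± SE, adjusted p = 0.0172 in edgeR). Ccr10, a homing receptor of IgA plasma cells, was higher by 1.59 ± 0.41 (adjusted p = 0.0205 in edgeR). Pou2af1 did not track the 10 genes within MaP R172H/- tumors, since YZ6 and YZ7, which had the least Igkc, had the most Pou2af1, 26.8 and 22.0 CPM. In MaP R172H/- and in MaP R245W/- against MaP -/- tumors 0 of 9 plasma cell genes were called by edgeR, with 2 in each at an unadjusted p below 0.05. Without both JM833 tumors 1 of 9, Ccr10, was called higher in the first of these, and the list's median moved from -0.61 to 0.64 on the log2 scale. That fit called 1448 of all 21415 genes tested in either direction.

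The machinery for secretion, shared by plasma cells and glands, had few calls. Of 12 listed genes 2 were called lower in MaP R172H/- than in MaP R245W/- tumors, against 6.49% of all genes. These were Edem1, a factor in the breakdown of misfolded glycoproteins, at -0.73 ± 0.20 (log2 ± SE, adjusted p = 0.0308 in edgeR), and Ssr4, a subunit at the protein translocation channel, at -0.67 ± 0.19 (adjusted p = 0.0344 in edgeR). In the class switching and germinal centre list 1 of 10 genes was called higher in MaP R172H/- than in MaP -/- tumors, against 3.67% of all genes. This was Tgfb1, a cytokine that can direct switching to IgA, at 0.59 ± 0.17 (log2 ± SE, adjusted p = 0.0458 in edgeR). That call was lost without both JM833 tumors, and then Gna13 was called lower. In the same list 1 of 10 was called lower in MaP R172H/- than in MaP R245W/- tumors, Gna13, a G protein subunit, at -0.61 ± 0.18 (adjusted p = 0.0397 in edgeR).

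Receptors that bind or carry antibody were called lower where they were called. In MaP R172H/- against MaP -/- tumors 2 of 8 were, against 4.73% of all genes called lower. These were Fcgr2b, the inhibitory IgG receptor, at -1.07 ± 0.27 (log2 ± SE, adjusted p = 0.0296 in edgeR), and Fcgr3, an activating IgG receptor, at -1.17 ± 0.31 (adjusted p = 0.0318 in edgeR). Fcgr3 was also lower in MaP R172H/- than in MaP R245W/- tumors, at -1.50 ± 0.44 (adjusted p = 0.0382 in edgeR). Pigr, the epithelial receptor that carries polymers of IgA and IgM, was highest in YZ11 at 166 CPM, YZ6 at 87.8 and JM1564 at 65.7, and was not called in any comparison. These high values stood beside 48.4, 2.77 and 4.48 CPM of Igha.

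Among homing and survival factors, Il6, a cytokine that supports plasma cells, was called lower in MaP R172H/- tumors than in MaP -/- tumors, at -3.21 ± 0.63 (log2 ± SE, adjusted p = 0.00807 in edgeR), and than in MaP R245W/- tumors, at -2.67 ± 0.73 (adjusted p = 0.0288 in edgeR). Itgb7, an integrin of cells that home to mucosa, was called lower against MaP -/- tumors, at -3.16 ± 0.80 (adjusted p = 0.028 in edgeR). Ccl28, the ligand of Ccr10 in epithelium, was between 0.229 and 2.59 CPM and was not called.

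Leukocyte genes did not follow immunoglobulin between the missense genotypes. All 11 listed leukocyte genes were below 0 in MaP R172H/- against MaP R245W/- tumors (median -0.71 on the log2 scale). Of these 1 was called, against 6.49% of all genes called lower. It was Cd53, at -2.17 ± 0.39 (log2 ± SE, adjusted p = 0.00178 in edgeR). The 12 macrophage genes had a median of -0.43 with 1 called lower, against the same 6.49% of all genes. It was Adgre1, at -1.31 ± 0.36 (adjusted p = 0.0302 in edgeR). In the 16 listed T cell genes 0 were called by edgeR in this comparison, 1 had an unadjusted p below 0.05, and the median was 0.16. Igkc relative to Ptprc was 0.0196 to 0.0927 in MaP R245W/- tumors, 0.0515 to 1.11 in MaP -/- tumors and 0.0583 to 2.61 in MaP R172H/- tumors.

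Against MaP -/- tumors, leukocyte genes were called lower in MaP R172H/- tumors in 3 of 11 cases, against 4.73% of all genes. These were Cd53 at -2.004 ± 0.26, Cd48 at -1.48 ± 0.23 and Ptprc at -1.24 ± 0.29 on the log2 scale with SE. Of 12 macrophage genes 2 were called lower there, against the same 4.73%, Adgre1 at -1.04 ± 0.20 and Mrc1 at -2.03 ± 0.50. Skeletal muscle genes were called lower in MaP R172H/- than in MaP R245W/- tumors in 6 of 7 cases, against 6.49% of all genes. Tnnt3 led them at -5.57 ± 1.05. Their summed level reached 1108 CPM in JM1233, the MaP R245W/- tumor with the most Ighm. The 13 epithelial genes had 0 calls by edgeR in each comparison, with 2, 3 and 1 at an unadjusted p below 0.05 in the order above. Without both JM833 tumors 1 of 13, Krt5, was called higher in MaP R172H/- than in MaP R245W/- tumors. That fit called 2101 of all 22451 genes tested in either direction.

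The genes whose level over the 18 tumors was most like that of Jchain were found by Spearman correlation of log2(CPM + 1) among 22481 genes, as a description. Among the 10 themselves, Igkc was at 0.946, Ighm at 0.938 and Igha at 0.903, while Ighg2c was at 0.612 and Ighg3 at 0.692. Outside the immunoglobulin loci the first 10 were Blk (0.901), Gm6044 (0.897), Cacna1e (0.884), Gm56536 (0.866), 4931413K12Rik (0.862), Gm17231 (0.86), Gm48972 (0.837), Gm50071 (0.833), Gm47071 (0.831) and Gm44553 (0.829). Blk encodes a kinase of B cell receptor signaling. Of these, Gm56536 kept 0.964, 0.9 and 1.0 within MaP R172H/-, MaP R245W/- and MaP -/- tumors. All points share genotype and platform, and 6 of these 10 genes had a median below 1 CPM.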

How the data were processed

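RNA of 18 tumors was depleted of ribosomal RNA, and the authors aligned reads with STAR 2.7.10b to GRCm39 and used RSEM 1.3.3 on GENCODE M34 genes to estimate counts. The deposited expected counts are whole numbers without normalization, and their rounding step is not given in the sources used here. RSEM shares reads among similar genes, which can bear on IgG subclasses and lambda genes, though few of their read-length stretches were shared. Positions, exon lengths and sequences came from GRCm39 with GENCODE M39, matched by identifier for 56620 of 57126 genes.

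Levels are CPM on TMM library sizes. Genotypes were compared with edgeR 4.0.16 in R 4.3.3 (TMM, filterByExpr, quasi-likelihood test, Benjamini-Hochberg adjustment over all genes tested, FDR below 0.05), each mutant against MaP -/- in a fit of its own and the mutants against each other in a fit of all 18. DESeq2 1.42.0, other library sizes, filters and samples were alternatives. The p-values measure the spread between these tumors, some of which share a mouse. No covariate was used, since platform goes with MaP R172H/-. The code was tested on simulated counts. Shares carry 95% Wilson intervals, and these and the limit of 3 counts for a 0 cover counting error only. Levels, shares, variable gene use and correlations were described with no test.

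Named were the 10 genes, other constant genes with a count, up to 5 genes a list and comparison at the smallest FDR below 0.05, Ms4a1, Cd79a, Tnfrsf17, Mzb1, Pigr and Ccl28, the 10 genes most like Jchain, and leading variable genes of tumors with many counts. Cr2, Glycam1, Iglv1, Krt5, Fcer2a, Tnfrsf13c and Prdm1 were named after their values were seen. A few genes that this rule names are not reported here. The genes and lists were chosen with earlier results of these data known.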

Additional observations from a re-analysis of the deposited data

Results flagged for a closer look

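Dixon's test looked for a tumor far from the others in 42 groups of tumors (10 genes and 4 class shares in 3 genotypes). Its chance rate of about 1 in 20 assumes normal values and separate groups. CPM was skewed here, as for Ighg2c in MaP R172H/- tumors (mean 63.0, median 15.4), and groups share tumors. That rate is therefore no yardstick for the number of flags. The test flagged the highest tumor in 10 groups. These were Ighm in MaP R245W/- tumors (JM1233, 42.7 CPM), Jchain in MaP R245W/- tumors (JM1233, 6.58 CPM), Ighg2b in MaP R172H/- tumors (YZ11, 75.8 CPM), Ighg2c in MaP R172H/- tumors (YZ4, 305 CPM) and Ighg3 in MaP R172H/- tumors (YZ3, 98.3 CPM). In MaP -/- tumors JM833-T2 stood apart in Ighg1 (45.01 CPM), Ighg3 (94.6 CPM) and Iglc2 (20.1 CPM). The IgA share stood apart in YZ4 (30.7%) among MaP R172H/- tumors and in JM836-T1 (35.4%) among MaP -/- tumors. The groups of missense tumors differed from each other in the direct test for Igkc (4.40 on the log2 scale), Ighg2c (4.89), Ighm (3.49) and Iglc2 (4.24). Genotype, platform and tumor subtype cannot be told apart in that test.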

How the results depend on the processing

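Of the 10 genes, the number called in MaP R172H/- against MaP -/- tumors was 0 under each alternative but 1, leaving out both tumors of JM833, which was chosen after seeing the data and gave 1. That fit called 1448 of all 21415 genes tested. Leaving out both also turned Ighm to 0.79, Ighg2b to 3.15, Iglc1 to 0.38 and Jchain to 0.84 in that comparison, and Ighg2c to 1.11 in MaP R245W/- against MaP -/- tumors. Leaving out 1 tumor at a time moved Ighg1 between -0.13 and 1.89, Ighg2b between -1.34 and 0.57 and Ighg3 between -1.25 and 2.18 in MaP R172H/- against MaP -/- tumors. DESeq2's Wald test called 8 in MaP R245W/- against MaP -/- tumors and 10 between the missense genotypes. With every gene that had a count, 2 were called between the missense genotypes, and leaving out 1 tumor gave 1 to 6. The cause of these changes was not tested. Over all genes, DESeq2 called 3447 (edgeR 1760), 427 (edgeR 0) and 3690 (edgeR 2114) in the order of the report, summing tumors of 1 mouse gave 1126 in the first comparison, and a filter of at least 10 counts in every tumor, which tested 5 of the 10 genes, gave 1401 in the last. Leaving out 1 tumor moved the first count between 1067 and 1866 and the second between 0 and 3, and the second was 2 with all 18 tumors in 1 fit. The median effective number of Igkv genes was 23.9 with all genes, 11.3 with genes of at least 10 counts, and 32.2 as the expected number in 100 counts, chosen after seeing the data. Of the 10 genes most like Jchain, 8 kept a correlation above 0.8 within MaP R172H/-, 2 within MaP R245W/- and 4 within MaP -/- tumors. At 1 to 7 counts a tumor, Iglc2 in MaP R245W/- tumors was at the limit of depth. No paired analysis was possible because the labels carry no replicate numbers that tie tumors of different genotypes together.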
